A study of Mus musculus with 20 samples.

Results

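Oxidative phosphorylation subunits were the 84 genes of the count table whose symbols begin with Nduf followed by a, b, c, s or v and a digit, with Uqcr, with Cox4 to Cox8 or with Atp5, together with Sdha, Sdhb, Sdhc and Sdhd, out of 24421 genes listed. The symbol set the complex: 37 genes for complex I, 4 for complex II, 8 for complex III, 18 for complex IV and 17 for complex V. All 4 groups came from bone marrow-derived dendritic cells (BMDCs) of the same 5 wild-type C57BL/6 mice, A to E, grown for 8 days with the growth factor GM-CSF at 40 ng/mL, which gave 20 bulk RNA-seq libraries. Cultures of every mouse were exposed to 5% DMSO or to iBET (I-BET151, a small molecule that keeps BET bromodomain proteins from binding acetylated histones) at 3.3 µM, with either ovalbumin (Ova) or immune complexes of ovalbumin and antibody (IC, which engage Fcγ receptors), for 4 hours. The groups are called DMSO Ova and DMSO IC without the inhibitor, and IBET Ova and IBET IC with it. They share the genotype, the culture and the time. The age and sex of mice A to E were not given in the sources used here. The labels describe the 2 agents as given together while the methods place iBET ahead of the stimulus, and the DMSO content of the iBET wells was not stated.

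Complexes I to IV form the electron transport chain of the inner mitochondrial membrane. Complexes I and II pass electrons from NADH and succinate to ubiquinone, complex III passes them to cytochrome c, and complex IV hands them to oxygen, while the protons pumped on the way drive ATP synthesis by complex V. Most subunits are encoded in the nucleus, a few are encoded by mitochondrial DNA, and dedicated assembly factors put the complexes together. Dendritic cells that are activated through pattern-recognition receptors are known to shift towards glycolysis. The subunits encoded by mitochondrial DNA were not analysed here, so every value concerns nuclear transcripts, and no respiration, protein level or complex assembly was measured.

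The libraries held 16447491 to 29245150 counts, of which the 84 genes took 0.704% to 0.882%. Dendritic cell markers were abundant in every group (summed level of 8 markers 6091 to 10554 CPM, counts scaled to library size with TMM factors). The medians were 7021 in DMSO Ova, 7679 in DMSO IC, 7635 in IBET Ova and 8510.5 in IBET IC. Of these markers, Cd74 was the highest in every group, and Flt3 and Zbtb46 had medians of only 0.71 and 25.3 CPM. Macrophage markers summed to 579.7 to 922 CPM over 6 genes, with medians of 869 in DMSO Ova, 832 in DMSO IC, 662 in IBET Ova and 753 in IBET IC. Among them Mrc1 had a median of 412 CPM, Adgre1 160 and Mertk 76. Sums over different genes do not measure the share of each cell type. Neutrophil markers summed to at most 48.7 CPM, mast cell and basophil markers to at most 2.73, and T and B cell markers to at most 0.801 CPM. The share of the ribosomal gene Rn45s, 2.69% to 8.61%, overlapped between the groups. The part of any of these in the results below was not tested. In bulk libraries, fewer cells of a type and less RNA per cell cannot be told apart.

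Of the 84 genes, 78 passed edgeR's filter on low counts and were tested with all 12465 genes that passed (36 of complex I, 4 of complex II, 8 of complex III, 13 of complex IV and 17 of complex V). The 6 that did not pass were Cox4i2, Cox6b2, Cox7b2, Cox8b, Cox8c and Ndufa4l2, isoforms known for restricted expression in other tissues or in hypoxia. Cox7b2, Cox8b and Cox8c had no count in any of the 20 libraries. For 8 members (Atp5c1, Atp5k, Atp5l, Cox5b, Cox7c, Ndufa12, Ndufs5 and Uqcrh) RefSeq lists a pseudogene or related sequence under their name, so reads could be split between copies and their values are uncertain.

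The subunit transcripts covered a wide range of levels. Atp5b, the catalytic beta subunit of the F1 head, was the most abundant with a mean of 1034 CPM over the 20 libraries, followed by Atp5a1, its alpha partner, with 823, Cox4i1 with 337, Cox7a2l with 272 and Sdha with 219 CPM. Divided by exon length, the highest member of each complex in the DMSO Ova libraries was Ndufa7 for complex I (99.2 ± 15.3 CPM per kb, SD, n = 5), Sdhd for complex II (108 ± 11.6), Uqcr10 for complex III (135 ± 14.7), Cox4i1 for complex IV (394 ± 31.2) and Atp5b for complex V (481 ± 28.5). Exon length is the union of all annotated exons of a gene, which can exceed the transcript in use.

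The ubiquitous isoforms of complex IV were more abundant than their muscle counterparts. On the per-length scale, Cox6a1, the ubiquitous isoform of subunit 6A, stood at 213 ± 12.2 CPM per kb in DMSO Ova against 18.4 ± 5.19 for Cox6a2, the heart and muscle isoform (SD, n = 5). Cox7a2, the ubiquitous subunit 7A, stood at 87.3 ± 12.6 CPM per kb against 1.38 ± 0.42 for the muscle isoform Cox7a1. The c subunit of the rotor ring is encoded by Atp5g1, Atp5g2 and Atp5g3, at 11.8 ± 1.57, 160.5 ± 6.07 and 134 ± 12.9 CPM per kb. Atp5g2 lay above Atp5g3 by more than the SD of either, and Atp5g1 lay far below both on this scale, with an exon union of 4912 bases.

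Promoter windows of 300 bases (250 before and 50 after the annotated start, RefSeq, GRCm38.p6) matched 67 of the 84 genes. They were searched on both strands for strings bound by factors known to act on respiratory genes, and the shares are descriptions without a test. The NRF1 string GCGCATGCG stood in 8 of the 67 windows (11.9%), against 2.42% of the 17611 windows of all genes and 3.8% of those of the other tested genes. For the YY1 string AAGATGGCG the shares were 10.4%, 2% and 3.32%, and for the ETS string CCGGAAG they were 22.4%, 12% and 19.4%. The ERR string TCAAGGTCA stood in 2 windows (2.99%, 0.329% and 0.23%). For the CREB string TGACGTCA the shares were 5.97%, 2.42% and 3.27%, for the E-box CACGTG 8.96%, 8.16% and 10.4%, and for TATAAA 10.4%, 12.8% and 6.9%. Against the other tested genes, the NRF1, YY1 and ERR strings were the ones whose share was more than 3 times as high in the subunit windows.

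The 3 sequences that follow are the 200 bases before the RefSeq start of subunit genes whose transcripts rose with IC in DMSO. They are examples of windows with an NRF1, ERR or ETS string, and other risen members with such strings, among them Atp5k, Atp5l and Ndufb7, are not shown. Searched strings are in capitals, on either strand. The NRF1 string is nearly its own reverse complement, so in Cox6a1 both strands match within one run of capitals.
Cox6a1, chr5:115348959-115349158 (minus strand): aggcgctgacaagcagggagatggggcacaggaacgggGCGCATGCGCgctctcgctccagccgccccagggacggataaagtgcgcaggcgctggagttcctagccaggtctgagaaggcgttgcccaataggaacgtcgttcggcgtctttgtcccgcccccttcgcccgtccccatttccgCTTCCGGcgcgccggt
Atp5g3, chr2:73911327-73911526 (minus strand): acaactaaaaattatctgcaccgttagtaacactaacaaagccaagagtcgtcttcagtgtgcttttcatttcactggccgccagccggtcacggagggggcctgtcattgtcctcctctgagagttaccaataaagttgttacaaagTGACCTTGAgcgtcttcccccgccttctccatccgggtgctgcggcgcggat
Uqcr11, chr10:80406822-80407021 (minus strand): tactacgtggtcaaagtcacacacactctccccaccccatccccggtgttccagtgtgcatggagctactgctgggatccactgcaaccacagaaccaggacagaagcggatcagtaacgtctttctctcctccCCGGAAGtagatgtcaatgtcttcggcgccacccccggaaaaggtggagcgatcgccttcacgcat
Cox6a1 holds the NRF1 string and, nearer the start, the ETS string, Atp5g3 the ERR string and Uqcr11 the ETS string. The NRF1 string of the Uqcr11 window and the E-box of the Atp5g3 window lie outside the 200 bases shown. By the GENCODE gene bounds, the last 23 bases of the Cox6a1 stretch, with its ETS string, and the last 9 of the Uqcr11 stretch already lie inside the gene. Of the windows of the members that rose with IC in DMSO, 4 of 28 held the NRF1 string, and of the tested members that were not called higher 4 of 36. For the ETS string the counts were 9 of 28 and 6 of 36. The YY1 string went the other way, with 1 of 28 and 6 of 36, as did the CREB string, with 1 of 28 and 3 of 36. For the ERR string the counts were 1 and 1, for the E-box 3 and 3, and for TATAAA 3 and 2.

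Summed over their members, all 5 complexes had their lowest mean in the DMSO Ova group and their highest in the IBET IC group. Complex V, the most abundant, summed to 3006 ± 193 CPM in DMSO Ova, 3438 ± 128 in DMSO IC, 3281 ± 223 in IBET Ova and 3723 ± 189 in IBET IC (SD, n = 5 mice). Its values in mice A to E were 3305, 2968, 2769, 3025 and 2963 in DMSO Ova. In IBET IC they were 3879, 3642, 3659, 3948 and 3484, so that these 2 groups did not overlap on the TMM scale. Complex IV followed the same order, with 1424 ± 93.8, 1656 ± 83.4, 1586 ± 111 and 1814 ± 127 CPM. Complex I stood at 1633 ± 119, 1821 ± 63.7, 1693 ± 135 and 1875 ± 104 CPM, and complex III at 608 ± 39.8, 694 ± 38.3, 629 ± 49.8 and 704 ± 41.6. Complex II, with only 4 subunits and no partner in mitochondrial DNA, moved least with IC, from 505 ± 41.9 to 522 ± 19.9 CPM in DMSO and from 521 ± 16.4 to 554 ± 30.4 in iBET, and the groups overlapped in both pairs. These sums weigh abundant subunits most and are given without a test. They also depend on the TMM factors, which were 1.026 to 1.08 in DMSO Ova and 0.9635 to 1.006 in DMSO IC. In IBET Ova the factors were 0.9794 to 1.04, and in IBET IC 0.9243 to 0.9629. A larger factor lowers the CPM, so on library totals alone DMSO Ova and IBET IC lie closer together.

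**Figure D1:**
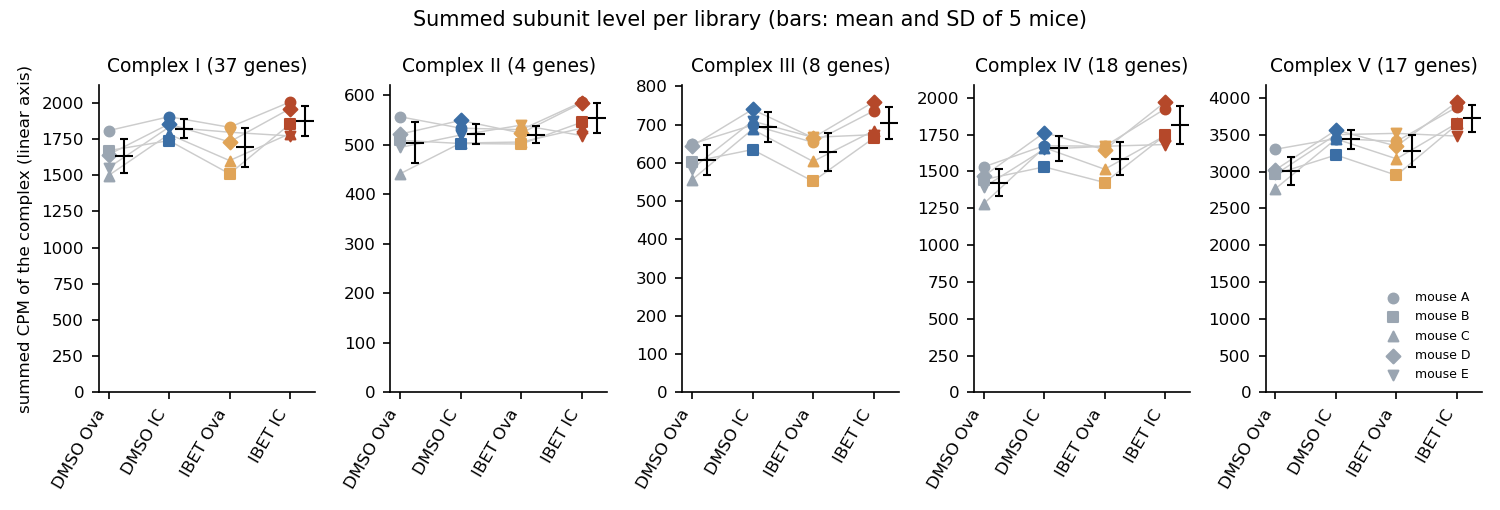
Summed CPM (linear axis from 0) of the subunits of complexes I to V in each library, by group; marker shapes and grey lines join the libraries of one mouse, and bars give the mean and SD of 5 mice. On this TMM scale complex V lies between 2769 and 3305 CPM in DMSO Ova and between 3484 and 3948 in IBET IC. The complex II libraries overlap between all 4 groups.

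To find which subunits responded to iBET in cells given ovalbumin alone, IBET Ova was compared with DMSO Ova. Of the 78 tested subunits, 20 rose and 5 fell past an adjusted p of 0.05 (edgeR's quasi-likelihood test, adjusted over all 12465 genes). These are 25.6% higher and 6.41% lower, beside 27.7% of all tested genes higher and 28.9% lower. The share that rose was thus near that of all genes, and the share that fell was below it. The changes were small: the median absolute log2 fold change was 0.15 over the subunits and 0.36 over all tested genes, and the signed medians were 0.12 and -0.0029. Among 4328 other genes at or above the lower quartile of subunit CPM, 31.5% rose and 25.8% fell, with a median absolute value of 0.27. The called subunits changed by 0.15 to 0.73 on the log2 scale in either direction.

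In complex I, 8 of 36 subunits rose and 3 fell. Ndufs1, the largest iron-sulfur subunit of the matrix arm, stood at 65.9, 56.6, 58.3, 59.8 and 64.6 CPM in the DMSO Ova libraries of mice A to E and at 51.2, 52.8, 47.2, 44.1 and 50.1 in the IBET Ova libraries. All iBET values lay below all DMSO values, with a log2 fold change of -0.32 (SE 0.0672, adjusted p = 0.0005). Ndufa9, an accessory subunit at the junction of both arms, fell by 0.28 on the log2 scale (SE 0.0666, adjusted p = 0.00114), and Ndufb7, in the intermembrane space, fell by 0.25 (SE 0.0816, adjusted p = 0.0149). In the opposite direction, Ndufa12, an accessory subunit of the matrix arm, went from 30.8, 26.6, 18.4, 24.7 and 18.9 to 36.2, 28.5, 32.7, 25.8 and 29.6 CPM. It was higher in each mouse although the groups overlapped, with a log2 fold change of 0.36 (SE 0.134, adjusted p = 0.0291). Other core subunits of the matrix arm did not pass the threshold, with log2 fold changes of -0.05 for Ndufs3, -0.067 for Ndufs7, -0.12 for Ndufs8, 0.018 for Ndufv1 and 0.035 for Ndufv2 and adjusted p-values of 0.169 to 0.865. By position in the complex, 2 of 10 subunits of the NADH-binding module rose and 1 fell, 0 of 6 of the ubiquinone-binding module rose and 1 fell, and 5 of 19 of the membrane arm rose and 1 fell. Ndufa4, named for complex I but found in complex IV, rose from 14.1 ± 1.08 to 17.7 ± 1.16 CPM (SD, n = 5) with no overlap and a log2 fold change of 0.33 (SE 0.0699, adjusted p = 0.000469).

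The 4 subunits that fell in this and in the next comparison lie apart in the genome (mm10, gene bounds from GENCODE): Ndufs1 on chr1:63143596-63176833, Ndufa9 on chr6:126821721-126849136, Ndufb7 on chr8:83566671-83571626 and Uqcrc2 on chr7:120635176-120659524. Ndufa9 and Ndufb7 were picked here after their values were seen.

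In complex II the subunits went in different directions. Sdhb, the iron-sulfur subunit, fell (-0.20, SE 0.0759, adjusted p = 0.0273) and Sdhc, a membrane anchor, rose (0.22, SE 0.0829, adjusted p = 0.0317). Sdha, the flavoprotein, and Sdhd, the second anchor, had log2 fold changes of 0.082 and 0.027 (adjusted p = 0.193 and 0.779). In complex III, Uqcrc2, a core protein, stood at 115, 111, 107, 117 and 119 CPM in DMSO Ova and 92.0, 87.1, 93.7, 93.5 and 97.3 in IBET Ova. The groups did not overlap, and Uqcrc2 had the smallest p-value of all subunits, with a log2 fold change of -0.29 (SE 0.05, adjusted p = 4.96e-05). Its partner Uqcrc1 had a log2 fold change of -0.10 (SE 0.0756, adjusted p = 0.247), and the Rieske protein Uqcrfs1 a log2 fold change of 0.078 (SE 0.0788, adjusted p = 0.416). The hinge protein Uqcrh rose in every mouse, from 54.8, 50.2, 62.4, 75.0 and 63.2 to 77.5, 65.4, 76.4, 90.6 and 84.9 CPM, with a log2 fold change of 0.37 (SE 0.13, adjusted p = 0.0202). The small subunits Uqcr11 (0.36, adjusted p = 0.00588) and Uqcrq (0.24, adjusted p = 0.0294) rose as well.

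Without the block, complexes IV and V held no subunit that fell. In complex IV, 5 of 13 rose, among them Cox5a, an early-joining subunit, with 109, 87.3, 91.8, 102 and 103 CPM in DMSO Ova and 111, 108, 118, 127 and 134 in IBET Ova. Cox5a was higher with iBET in each mouse, with a log2 fold change of 0.28 (SE 0.0772, adjusted p = 0.00482). The others were Cox6a1 (0.32, adjusted p = 9.66e-05), Cox7b (0.30, adjusted p = 0.00456), Cox6c (0.22, adjusted p = 0.0204) and the muscle isoform Cox7a1, which rose by 0.73 (SE 0.278, adjusted p = 0.0318) from a level of only 0.737 ± 0.225 CPM. In complex V, 3 of 17 rose. Atp5g3, a c subunit gene, went from 113, 94.6, 88.1, 97.5 and 92.2 to 113, 102, 119, 127 and 135 CPM, with a log2 fold change of 0.30 (SE 0.0779, adjusted p = 0.00298), and Atp5a1 had a log2 fold change of 0.18 (SE 0.0616, adjusted p = 0.017). Atp5s, a coupling factor B-like protein that is not a subunit of the mature enzyme, had the largest change of the complex V symbols, from 1.96, 2.61, 2.17, 2.31 and 2.10 to 4.04, 3.96, 3.09, 2.97 and 3.35 CPM without overlap and with a log2 fold change of 0.65 (SE 0.167, adjusted p = 0.00269). The beta subunit Atp5b had a log2 fold change of 0.14 (SE 0.0628, adjusted p = 0.0714), and the gamma subunit Atp5c1 a log2 fold change of -0.046 (SE 0.0679, adjusted p = 0.581).

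With the mouse as a replicate block, 34 subunits rose and 6 fell, 43.6% and 7.69%, beside 33.5% and 35.2% of all tested genes. The block called 38.4% higher and 32.4% lower among the 4328 other genes at or above the lower quartile of subunit CPM. All 25 calls made without the block were kept, and the block called in addition, among the genes named here, Atp5b (adjusted p = 0.0278), Cox4i1 (0.0359), Ndufs5 (0.0221) and Ndufa1 (0.0362), all higher, and Cox6a2 (0.0292), lower. By complex, the block gave 14 higher and 3 lower in complex I, with 10 of 19 membrane arm subunits and 3 of 10 of the NADH-binding module higher, 1 and 1 in complex II, 3 and 1 in complex III, 10 and 1 in complex IV and 6 and 0 in complex V. Scaled to the library total alone, 12 rose and 6 fell, beside 24.2% and 32.1% of all tested genes. Leaving out mouse C reduced the number called without the block to 16 (of all genes 49.9% were then called). Whichever mouse was left out, 13 of the 25 calls held, a count not made over all tested genes. Among these calls were Ndufs1, Ndufa9, Uqcrc2, Ndufa4, Cox5a, Cox6a1, Cox7b, Uqcr11, Atp5g3 and Atp5s. Of the others named above, calls were lost without mouse C or E for Ndufa12 (highest adjusted p = 0.155), without C, D or E for Sdhc (0.126), Uqcrq (0.252) and Atp5a1 (0.0766), and without C for Cox6c (0.0787). They were lost without A, B or D for Sdhb (0.196), without A or E for Uqcrh (0.0806), without B or C for Cox7a1 (0.155) and without B or D for Ndufb7 (0.194).

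**Figure D2:**
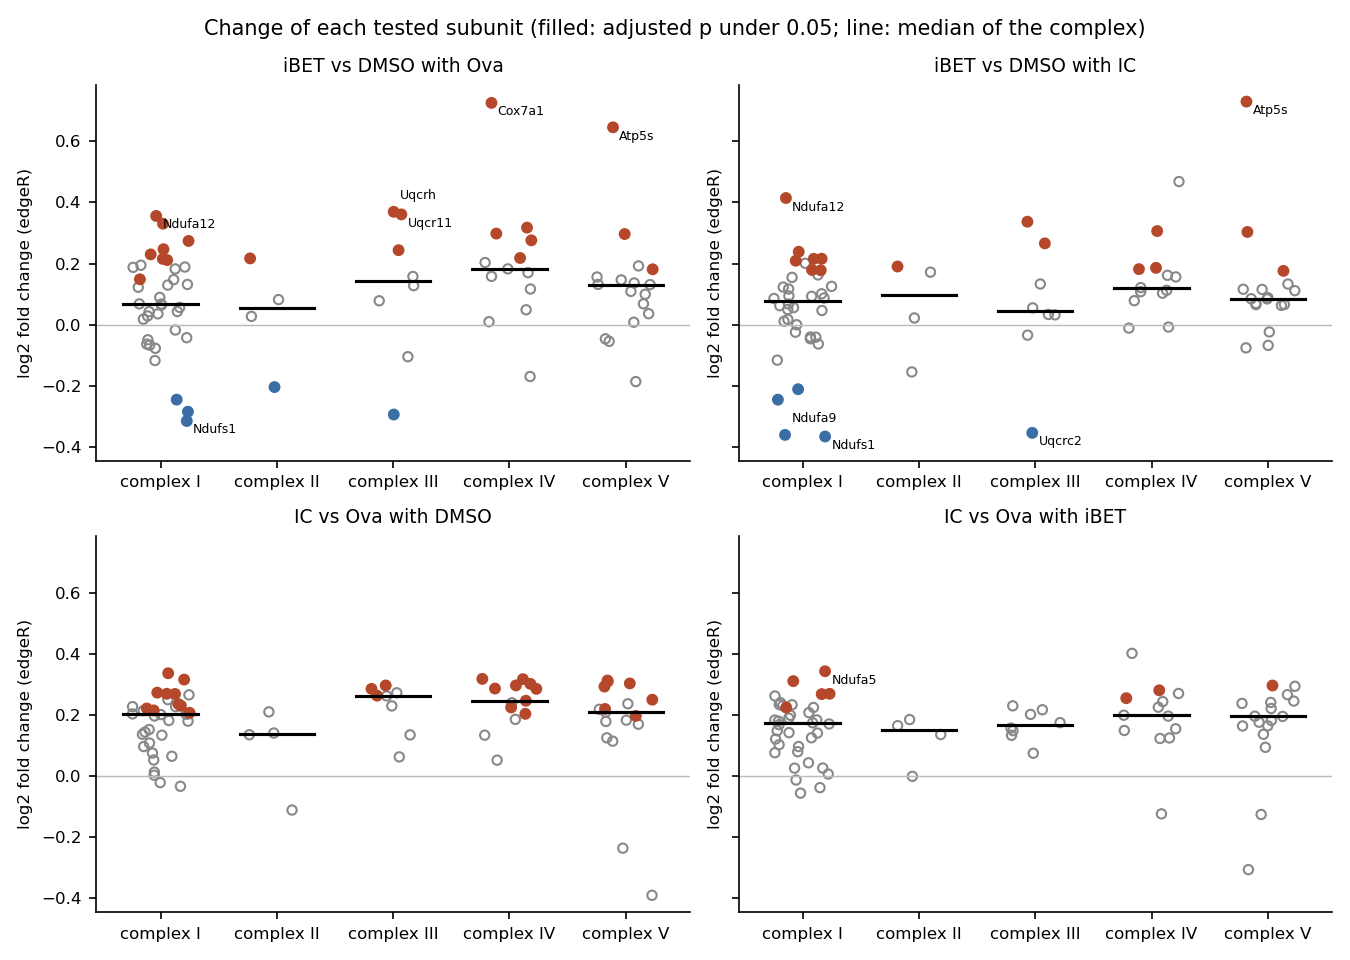
Log2 fold change (edgeR) of each of the 78 tested subunits, by complex, in the 4 pairwise comparisons; filled points passed an adjusted p of 0.05 (red higher, blue lower), black lines are medians. With iBET each complex spreads to both sides of 0, and with IC nearly all points lie above 0 and none that passed lies below.

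The same question was asked in cells given IC, where IBET IC was compared with DMSO IC. Here 16 of 78 subunits rose and 5 fell, 20.5% and 6.41%, beside 27.1% and 29.0% of all tested genes. The median log2 fold change was 0.088 over the subunits and -0.0054 over all tested genes, and the median absolute values were 0.11 and 0.36. Among 4328 other genes at or above the lower quartile of subunit CPM, 29.1% rose and 26.9% fell, with a median absolute value of 0.26. The libraries of this comparison are other ones than those with Ova, from the same mice. Of all tested genes 56.6% were called with Ova and 56.1% with IC, and the overlap of those calls was not counted. Called higher in both were 14 subunits (Atp5a1, Atp5g3, Atp5s, Cox5a, Cox6a1, Cox6c, Ndufa10, Ndufa12, Ndufa4, Ndufb9, Ndufc1, Ndufv3, Uqcr11 and Uqcrh) and called lower in both were 4 (Ndufa9, Ndufb7, Ndufs1 and Uqcrc2).

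The falls were again in complexes I and III. Ndufs1 stood at 70.2, 61.1, 59.8, 60.9 and 56.2 CPM in the DMSO IC libraries of mice A to E and at 49.2, 51.8, 46.6, 44.4 and 47.0 in the IBET IC libraries, without overlap and with a log2 fold change of -0.37 (SE 0.0672, adjusted p = 0.000113). Uqcrc2 went from 124, 117, 122, 133 and 129 to 97.6, 92.5, 99.9, 102 and 96.3 CPM, also without overlap, with a log2 fold change of -0.35 (SE 0.05, adjusted p = 5.53e-06). Ndufa9 fell by 0.36 (SE 0.0665, adjusted p = 0.000117), Ndufb7 by 0.25 (SE 0.0811, adjusted p = 0.0145) and Ndufs8, a core iron-sulfur subunit of the ubiquinone module, by 0.21 (SE 0.0711, adjusted p = 0.0161). The largest rise in complex I was, as with Ova, that of Ndufa12, from 24.1, 23.0, 28.0, 31.3 and 31.2 to 42.1, 36.0, 32.2, 37.9 and 35.0 CPM, this time without overlap and with a log2 fold change of 0.41 (SE 0.133, adjusted p = 0.0122). The core subunits Ndufs3, Ndufs7, Ndufv1 and Ndufv2 had log2 fold changes between -0.063 (Ndufs7) and 0.085 (Ndufv2) and did not pass the threshold.

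In complex II, Sdha rose from 201 ± 9.78 to 229.6 ± 8.50 CPM (SD, n = 5) without overlap, with a log2 fold change of 0.19 (SE 0.0526, adjusted p = 0.00411). Sdhb had a log2 fold change of -0.15 (SE 0.0758, adjusted p = 0.0895) and Sdhc a log2 fold change of 0.17 (SE 0.0827, adjusted p = 0.0845). With the replicate block both passed, Sdhb lower (adjusted p = 0.0205) and Sdhc higher (0.00973), as did Cox4i1 (0.048) and Cox7a2l (0.0374), both higher, in a fit that called 32.6% of all tested genes higher and 35.4% lower. In complex III, Uqcrh rose (0.34, SE 0.129, adjusted p = 0.0323), as did Uqcr11 (0.27, adjusted p = 0.0344). In complex IV, Cox5a went from 117, 101, 118, 119 and 122 to 139.6, 130.3, 136, 159 and 148 CPM without overlap, with a log2 fold change of 0.31 (SE 0.0771, adjusted p = 0.00219), and Cox6a1 (0.19, adjusted p = 0.00944) and Cox6c (0.18, adjusted p = 0.0498) rose. Cox7a1 had a log2 fold change of 0.47 (SE 0.276, adjusted p = 0.158) and did not pass. In complex V, Atp5g3 (0.30, adjusted p = 0.00252), Atp5a1 (0.18, adjusted p = 0.0202) and Atp5s (0.73, adjusted p = 0.00121) rose, while Atp5b had a log2 fold change of 0.12 (SE 0.0628, adjusted p = 0.124). Scaled to the library total alone, 8 subunits rose and 7 fell, beside 23.9% and 32.3% of all tested genes. Leaving out mouse D reduced the number of subunits called without the block to 12 (of all genes 49.3% were then called). Whichever mouse was left out, 9 calls held, a count not made over all tested genes. These were Atp5g3, Atp5s, Cox5a, Ndufa12, Ndufa9, Ndufc1, Ndufs1, Sdha and Uqcrc2. Calls were lost without B or D for Ndufs8 (highest adjusted p = 0.0598), without D for Atp5a1 (0.0823), without C for Cox6a1 (0.0597), without A, C or E for Uqcrh (0.0949), without C or E for Ndufb7 (0.0828), without any of B to E for Uqcr11 (0.0678) and without A, B or D for Cox6c (0.152).

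**Figure D3:**
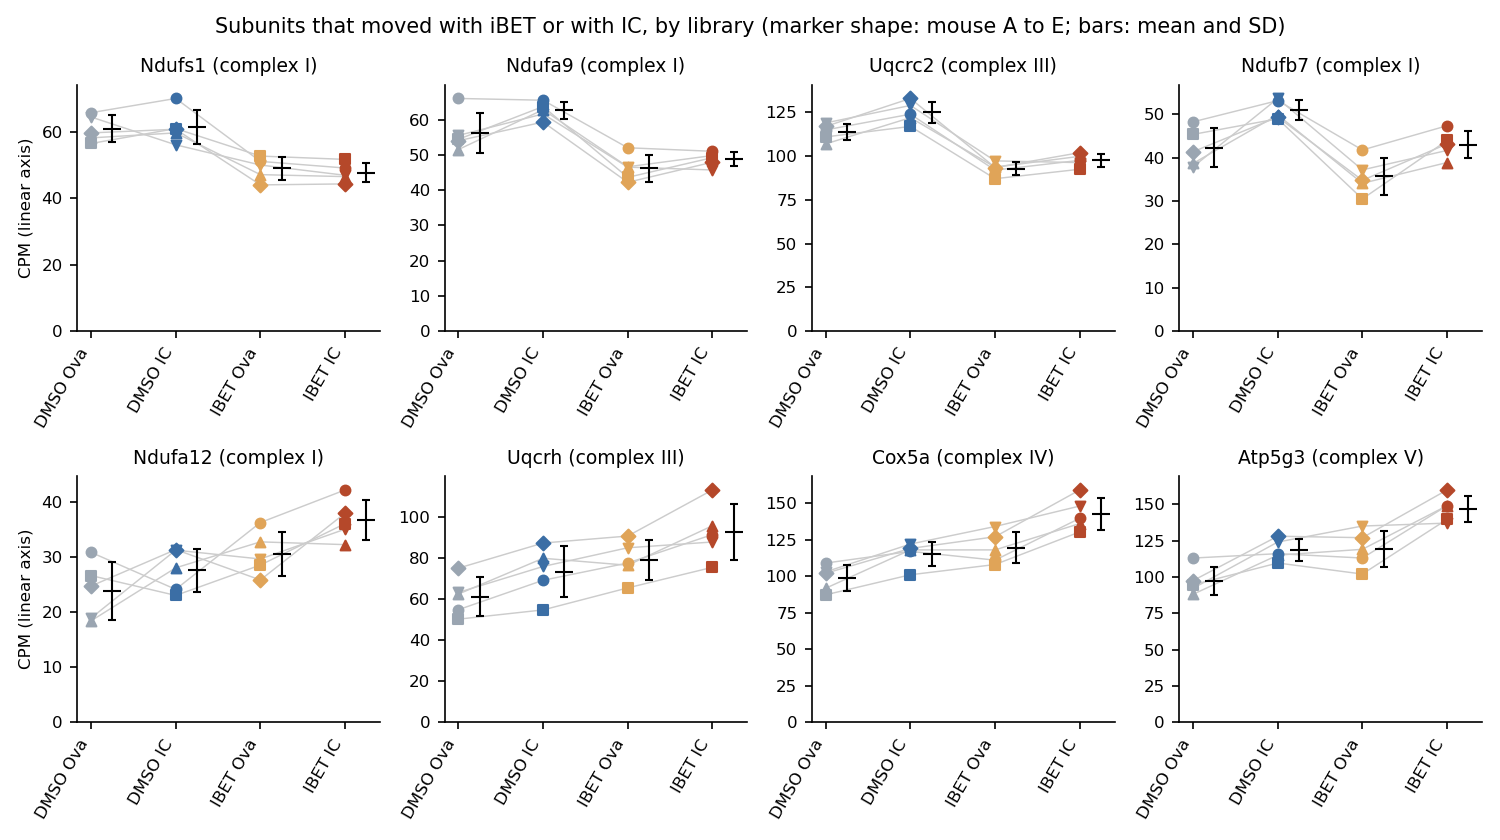
CPM (linear axes from 0) of 8 subunits in each library, with grey lines joining the libraries of one mouse and bars for the mean and SD of 5 mice. Ndufs1, Ndufa9, Uqcrc2 and Ndufb7 are lower in the iBET groups, Ndufa12, Uqcrh, Cox5a and Atp5g3 higher; with IC in DMSO the log2 fold change is 0.013 for Ndufs1, which did not pass, and 0.29 for Atp5g3, which did.

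IC was then compared with Ova in the DMSO groups, to ask what Fcγ receptor engagement does to the subunits. Here 30 of 78 subunits rose and 0 fell, 38.5% and 0%, beside 9.59% and 10.7% of all tested genes, and 73 of 78 fold changes were above 0. The median log2 fold change was 0.21 over the subunits and -0.024 over all tested genes. Among 4328 other genes at or above the lower quartile of subunit CPM, 17.0% rose and 8.25% fell, with a median of 0.052. With the replicate block 31.7% of these other genes rose and 15.3% fell. The called changes were of similar size, 0.20 to 0.34. With the replicate block 58 members rose and 1 fell, 74.4% and 1.28%, beside 18.3% and 19.8% of all genes. The 1 that fell was Atp5sl, an Atp5s-like gene that is counted with complex V by its symbol only.

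The subunits that rose were mostly small accessory ones. Of the 53 accessory subunits, 25 rose, with a median log2 fold change of 0.23 and all 53 above 0, and of the 19 core subunits 5 rose (Atp5b, Cox4i1, Cox5a, Ndufs8 and Uqcrfs1), with a median of 0.13. With the block the counts were 48 of 53 and 9 of 19. The list of core subunits used here counts Cox4i1 and Cox5a. The catalytic core of complex IV is encoded by mitochondrial DNA, so these nuclear subunits can also be classed as accessory. The counts and medians were not repeated with that class. In complex I, 9 of 19 membrane arm subunits rose, 2 of 6 of the ubiquinone-binding module and 0 of 10 of the NADH-binding module, and with the block 17 of 19, 3 of 6 and 4 of 10. Ndufa1, a membrane accessory subunit with the largest rise in complex I, stood at 38.2, 34.9, 29.4, 33.2 and 30.9 CPM in DMSO Ova and 39.6, 38.3, 44.4, 46.9 and 41.3 in DMSO IC. The groups did not overlap, with a log2 fold change of 0.34 (SE 0.086, adjusted p = 0.00945). Ndufa5 of the ubiquinone module rose from 21, 17.9, 16.1, 17.6 and 15.6 to 23.4, 21.6, 20.5, 24.1 and 20.3 CPM, with overlap and a log2 fold change of 0.32 (SE 0.0883, adjusted p = 0.016). The core subunits Ndufs1 (0.013), Ndufs3 (-0.021), Ndufs7 (0.0031), Ndufv1 (0.053) and Ndufv2 (0.075) did not pass, with adjusted p-values of 0.384 to 0.989.

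In complex II no subunit passed: Sdha had a log2 fold change of -0.11 (SE 0.0526, adjusted p = 0.146), and with the block Sdhc (0.22, adjusted p = 0.00423) and Sdhd (0.14, adjusted p = 0.0202) rose. In complex III, Uqcr11 (0.30, adjusted p = 0.0491), Uqcrq (0.29, adjusted p = 0.0332) and Uqcrfs1 (0.26, adjusted p = 0.023) rose, and Uqcrc2 had a log2 fold change of 0.13 (SE 0.0499, adjusted p = 0.0621), which passed with the block (adjusted p = 0.013). In complex IV, 9 of 13 rose. Cox7b had the largest change among them, from 83.5, 73.9, 58.6, 72.4 and 69.8 to 95.9, 81.7, 92.1, 93.8 and 83.4 CPM with a log2 fold change of 0.32 (SE 0.0827, adjusted p = 0.0106), and Cox5b, the zinc-binding subunit, went from 118, 108, 98.3, 111 and 96.8 to 123, 124, 132, 143 and 134 without overlap and with a log2 fold change of 0.30 (SE 0.086, adjusted p = 0.0177). Both were higher with IC in each mouse. In complex V, 7 of 17 rose, from Atp5b (0.20, adjusted p = 0.0323) to Atp5d, the delta subunit of the central stalk (0.31, adjusted p = 0.0369). Atp5g3 rose (0.29, adjusted p = 0.012), and Atp5a1 passed only with the block (0.17, adjusted p = 0.00814). The block also added Ndufa7 (adjusted p = 0.0157), Ndufa9 (0.0179), Uqcr10 (0.00971), Uqcrh (0.00066) and Cox6c (0.0267), all higher. By complex it called 24 of 36, 2 of 4, 7 of 8, 11 of 13 and 14 of 17 higher.

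The counts without the block depended on single mice and on the scaling. The block fit was not repeated with a mouse left out or with another scaling. How many calls of all tested genes held whichever mouse was left out was not counted. Leaving out mouse C or D left 3 subunits called in each case, and leaving out mouse E left 10, where 9.43%, 11.4% and 14.2% of all genes were called, while Cox6a1 held whichever mouse was left out (highest adjusted p = 0.023). The highest adjusted p-values on leaving out 1 mouse were 0.107 for Ndufa5 (mouse D) and between 0.0763 (Cox7b) and 0.223 (Cox5a) for the other calls named here, which were all lost without mouse C and in part also without A, B, D or E. The per-mouse medians over the 78 subunits were 0.11, 0.091, 0.34, 0.23 and 0.27 in mice A to E, all above 0. Without TMM, scaled to the library total alone, the median of all tested genes shifted to -0.13, that of the subunits to 0.10, and 2 subunits were called higher and 3 lower, beside 4.67% and 20.8% of all tested genes. Relative to the median of all genes the subunits lay higher on both scales, and no called subunit changed sign.

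Transcript length moved with the IC comparison. The tested subunits were short, with a median exon length of 992 bases against 3202 over all tested genes, and core subunits had a median of 1653 against 838 for accessory ones. Among genes of 500 to 1000 bases, the 34 subunits had a median log2 fold change with IC in DMSO of 0.23 and the 496 other tested genes one of 0.13, with 14.5% of the others called higher and 2.22% lower. Below 500 bases, the 5 subunits had a median of 0.30 and the 304 other genes one of -0.095. For 1000 to 1500 bases the medians were 0.22 over 17 subunits and 0.050 over 1052 other genes, and for 1500 to 2000 bases 0.095 over 12 and 0.0026 over 1250. The other genes in these bins were not restricted to protein-coding ones. Of 800 other tested genes up to 1000 bases, 492 were protein-coding. Those 492 had a median of 0.13, with 15.45% called higher and 1.63% lower. The 39 tested subunits of that length had a median of 0.24, with 51.3% called higher and 0% lower. The part of length in the result was not tested.

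**Figure D4:**
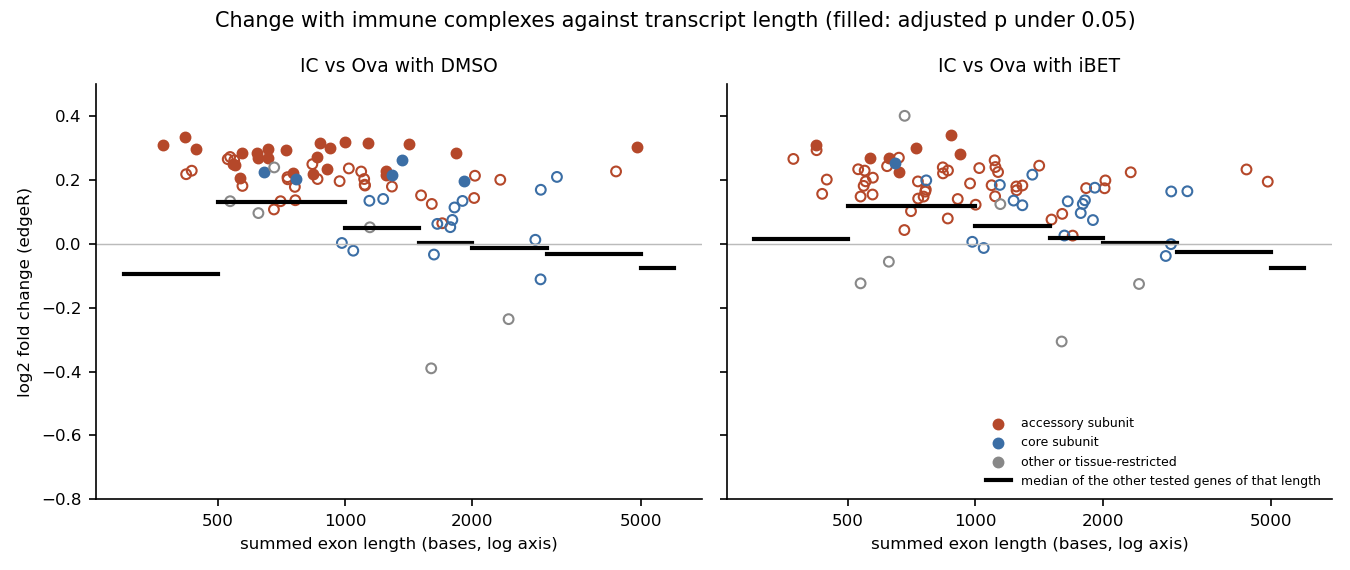
Log2 fold change with IC (edgeR) of the tested subunits against summed exon length (log axis), with DMSO on the left and iBET on the right; filled points passed an adjusted p of 0.05, and black steps are medians of the other tested genes in bins of length. Between 500 and 1000 bases the other genes, protein-coding or not, have a median of 0.13 in DMSO, and the subunits one of 0.23.

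In the iBET groups, IC against Ova gave 8 subunits higher and 0 lower, 10.3% and 0%, beside 5.19% and 6.63% of all tested genes, and 71 of 78 fold changes were above 0. The median was 0.18 over the subunits and -0.014 over all tested genes. Among 4328 other genes at or above the lower quartile of subunit CPM, 9.96% rose and 5.82% fell, with a median of 0.039. With the replicate block 48 subunits rose and none fell, 61.5%, beside 14.2% of all genes higher and 14.7% lower. The block called 25.7% of the 4328 other genes higher and 12.4% lower. The 8 subunits called without the block were Atp5g3, Cox5a, Cox5b, Ndufa1, Ndufa3, Ndufa5, Ndufb6 and Ndufb7. Overlaps between comparisons were not counted over all tested genes. Each of these 8 had also risen with IC in DMSO, in other libraries of the same mice. Of these, 3 were also called in both iBET comparisons, and so in all 4: Atp5g3 and Cox5a were higher with each agent, while Ndufb7 was lower with iBET and higher with IC. Ndufb7 stood at 48.3, 45.4, 38.7, 41.4 and 37.9 CPM in DMSO Ova, 53.2, 49.0, 49.9, 49.4 and 53.7 in DMSO IC, 41.8, 30.5, 34.1, 34.8 and 37.2 in IBET Ova and 47.4, 44.0, 38.9, 43.2 and 41.7 in IBET IC. Its IBET IC values thus spanned about the range of its DMSO Ova values.

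Of these 8, Ndufa5 had the largest rise, from 18.4, 18.6, 14.9, 18.0 and 20.1 CPM in the IBET Ova libraries of mice A to E to 24.6, 24.6, 21.4, 21.8 and 21.7 in the IBET IC libraries, without overlap and with a log2 fold change of 0.34 (SE 0.0883, adjusted p = 0.0154). Ndufa1 went from 41.1, 31.2, 39.7, 38.1 and 39.7 to 47.1, 44.4, 45.1, 54.1 and 44.9 CPM, without overlap, with a log2 fold change of 0.31 (SE 0.0858, adjusted p = 0.0228). Atp5g3 went from 113, 102, 119, 127 and 135 to 149, 139.6, 149, 159.8 and 137 CPM, with a log2 fold change of 0.30 (SE 0.0778, adjusted p = 0.0161), the smallest value with IC lying just above the largest with Ova. Cox5b (0.28, adjusted p = 0.0381) and Cox5a (0.26, adjusted p = 0.0358) rose in complex IV. Among core subunits of complex I, Ndufs1 had -0.038 and Ndufv2 0.13 without passing, and Sdha had a log2 fold change of -0.00067 (SE 0.0525, adjusted p = 0.996). With the block, Atp5b (adjusted p = 0.0141), Atp5a1 (0.0136), Cox4i1 (0.00424), Uqcrfs1 (0.00188), Uqcrh (0.00276), Ndufv2 (0.0303), Sdhb (0.0177), Sdhc (0.0291), Sdhd (0.0384), Uqcr11 (0.0267), Atp5d (0.0145), Ndufa7 (0.0445), Cox6a1 (0.0196) and Cox6a2 (0.000307) rose too. The muscle isoform Cox6a2 had the larger fold change, 0.40 (SE 0.249, adjusted p = 0.333) without the block and 0.38 with it. By complex, the block called 20 of 36, 3 of 4, 3 of 8, 9 of 13 and 13 of 17 higher.

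Without the block every one of these 8 calls was lost in at least 2 of the 5 fits that left out a mouse. Such losses were not counted over all tested genes. The number called was 4 without mouse A, 0 without B, 0 without C, 1 without D and 11 without E, where 8.17%, 7.35%, 5.14%, 5.75% and 9.44% of all genes were called. The highest adjusted p-values of these fits were 0.0858 for Ndufa5, 0.126 for Ndufa1, 0.0974 for Atp5g3, 0.202 for Cox5b and 0.141 for Cox5a. The per-mouse medians over the 78 subunits were 0.18, 0.28, 0.19, 0.22 and -0.02, so that mouse E did not share the rise of the other 4. Scaled to the library total alone, the median of all tested genes was -0.12, that of the subunits 0.071, and 0 subunits were called (2.51% of all genes were called higher and 16.3% lower).

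The interaction asks whether iBET acted differently with IC than with Ova. No subunit passed, beside 0.0401% of all tested genes (5 genes) with edgeR. None of the subunits had an unadjusted p under 0.05. Of all 12465 tested genes 543 did, a share that is itself below 0.05. With the replicate block no subunit passed either, beside 0.818% of all tested genes (102 genes), and DESeq2's Wald test called none. The 3 subunits with the smallest p-values were Ndufs5 (difference of log2 fold changes -0.19, SE 0.106), Cox7b (-0.20, SE 0.117) and Cox6a1 (-0.13, SE 0.0811), each with an adjusted p of 0.9999 (edgeR). For the 4 subunits that fell with iBET in both settings the differences were small against their errors, for example -0.051 (SE 0.095) for Ndufs1 and -0.06 (SE 0.0707) for Uqcrc2. The mice differed more than that: the median interaction over the 78 subunits was 0.084, 0.23, -0.13, -0.012 and -0.25 in mice A to E. Mice A and B lay above 0 and mice C, D and E below.

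Genes around the complexes moved by other amounts with iBET. Of 46 tested assembly factors of complexes I to V, 8 rose and 21 fell with Ova (median log2 fold change -0.15). With IC 9 rose and 18 fell (-0.12), where the subunits had medians of 0.12 and 0.088. These are 17.4% higher and 45.7% lower with Ova, and 19.6% and 39.1% with IC. Of all tested genes 27.7% rose and 28.9% fell with Ova, and 27.1% and 29.0% with IC. Among complex I assembly factors 3 of 13 rose and 6 fell with Ova, led by Ndufaf7, a methyltransferase (0.98, SE 0.0901, adjusted p = 1.90e-08), Acad9 (0.39, SE 0.0532, adjusted p = 3.57e-06), Ndufaf3 (-0.82, SE 0.11, adjusted p = 3.05e-06) and Ndufaf6 (-0.56, SE 0.132, adjusted p = 0.00123). Of 4 complex II factors 1 fell, Sdhaf2 (-0.28, SE 0.0823, adjusted p = 0.00692), which attaches the flavin to Sdha. Of 6 complex III factors 1 rose, Ttc19 (0.86, SE 0.0834, adjusted p = 4.01e-08), and 3 fell, among them Uqcc1 (-0.32, SE 0.077, adjusted p = 0.00135) and Bcs1l (-0.54, SE 0.133, adjusted p = 0.00188), which inserts the Rieske protein. Of 20 complex IV factors 4 rose and 9 fell, including Cox19 (0.87, SE 0.0964, adjusted p = 2.52e-07), Cox15 (0.40, SE 0.0552, adjusted p = 3.84e-06), Cox10 (-0.99, SE 0.093, adjusted p = 2.32e-08), which adds the farnesyl tail on the way to heme A, and Coa5 (-0.48, SE 0.063, adjusted p = 2.17e-06). Of 3 complex V factors 2 fell, Atpaf1 (-1.07, SE 0.183, adjusted p = 5.31e-05) and Tmem70 (-0.48, SE 0.107, adjusted p = 0.000754).

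Of 13 tricarboxylic acid cycle genes 5 rose and 1 fell with iBET in Ova (median 0.11), among them Ogdh (0.50, SE 0.0621, adjusted p = 1.09e-06), Dlst (0.28, SE 0.0399, adjusted p = 5.77e-06) and Sucla2 (-0.23, SE 0.0654, adjusted p = 0.00611). Of 14 genes of the electron transfer flavoprotein and of ubiquinone synthesis 4 rose and 4 fell (median 0.085), including Coq10a (0.84, SE 0.079, adjusted p = 2.44e-08), Coq9 (0.62, SE 0.0606, adjusted p = 4.09e-08), Coq7 (-0.79, SE 0.104, adjusted p = 2.29e-06) and Coq4 (-0.63, SE 0.132, adjusted p = 0.000433). Of 15 regulators of mitochondrial biogenesis 6 rose and 5 fell (median 0.22). Nrf1, which binds the NRF1 string shown above, rose (0.56, SE 0.0631, adjusted p = 3.35e-07), as did Polg2 (1.17, SE 0.171, adjusted p = 8.71e-06), and Gabpa, the ETS factor also called NRF-2 alpha, fell (-0.86, SE 0.0714, adjusted p = 4.40e-09), as did Gabpb2 (-0.60, SE 0.0692, adjusted p = 4.23e-07). The shares of these lists with Ova were 38.5% higher and 7.69% lower, 28.6% and 28.6%, and 40.0% and 33.3%. Of all tested genes 27.7% were higher and 28.9% lower, so the flavoprotein and ubiquinone list was near that share. With IC these lists gave 5 higher and 0 lower, 4 higher and 3 lower, and 5 higher and 6 lower. Beside them, 27.1% and 29.0% of all tested genes were called. Of 6 genes of the chain outside the symbol rule, 1 rose with iBET in each setting, Cycs, which encodes cytochrome c (0.53, SE 0.101, adjusted p = 0.000178 with Ova and 0.33, SE 0.101, adjusted p = 0.00839 with IC). With the replicate block and Ova there were 12 higher and 21 lower assembly factors and 6 and 3 genes of the tricarboxylic acid cycle. The flavoprotein and ubiquinone list had 5 and 5, the regulators 8 and 5, and the genes outside the rule 2 and 0. Of all tested genes 33.5% were then higher and 35.2% lower. With the block and IC there were 11 higher and 18 lower assembly factors and 6 and 1 genes of the tricarboxylic acid cycle. The flavoprotein and ubiquinone list had 6 and 4, the regulators 6 and 7, and the genes outside the rule 2 and 0. Of all tested genes 32.6% were then higher and 35.4% lower.

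With IC against Ova in DMSO, the assembly factors showed 1 higher and 3 lower of 46 (median -0.018), the tricarboxylic acid cycle 2 higher and 1 lower of 13 (0.09), the flavoprotein and ubiquinone genes 0 higher and 2 lower of 14 (0.0009) and the biogenesis regulators 0 higher and 2 lower of 15 (-0.064), where the subunits showed 30 higher and 0 lower of 78. The 6 genes outside the rule had 3 higher and 0 lower (0.18). Of all tested genes 9.59% were higher and 10.7% lower. In the iBET groups the same 5 lists had 2 higher and 2 lower, 1 and 0, 0 and 0, 0 and 2, and 2 and 0. Beside them, 5.19% of all tested genes were higher and 6.63% lower. The block called 18.3% of all tested genes higher and 19.8% lower with IC in DMSO, and 14.2% and 14.7% with IC in iBET. With the block, IC in DMSO gave 3 higher and 5 lower assembly factors, 4 and 1 genes of the tricarboxylic acid cycle, 1 and 2 of the flavoprotein and ubiquinone list, 0 and 5 regulators and 4 and 0 genes outside the rule, and IC in iBET 4 higher and 4 lower assembly factors, 3 and 0 genes of the tricarboxylic acid cycle, 4 and 1 of the flavoprotein and ubiquinone list, 0 and 5 regulators and 4 and 0 genes outside the rule.

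**Figure D5:**
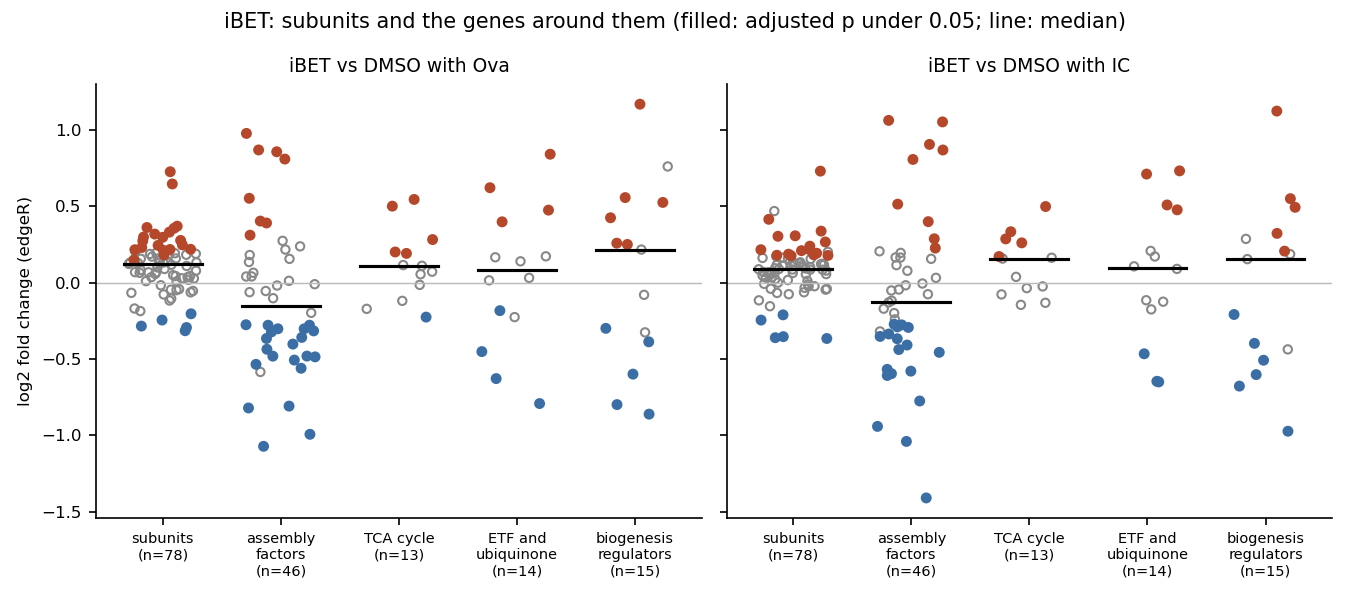
Log2 fold change with iBET (edgeR) of the 78 tested subunits, 46 assembly factors, 13 tricarboxylic acid (TCA) cycle genes, 14 genes of the electron transfer flavoprotein (ETF) and ubiquinone synthesis and 15 biogenesis regulators, with Ova on the left and IC on the right; filled points passed an adjusted p of 0.05 and lines are medians. The subunits lie in a narrow band with medians of 0.12 and 0.088, and the assembly factors spread on both sides of 0 with medians of -0.15 and -0.12.

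The subunits also differed between mice. The summed level of all 84 genes in DMSO Ova was 7850.1, 7195, 6545, 7300.2 and 6988 CPM in mice A to E, and in IBET IC 9132, 8453, 8408, 9224 and 8129.6. With iBET in Ova the per-mouse median log2 fold change over the 78 subunits was 0.054, -0.051, 0.18, 0.13 and 0.26, and with iBET in IC 0.14, 0.16, 0.029, 0.14 and 0.0055. Mouse B was the one below 0 with Ova and had the highest median with IC. Over all tested genes these medians lay between -0.025 and 0.0069. The muscle isoform Cox6a2 differed between mice as well. It stood at 16.0, 16.7, 9.79, 9.74 and 10.3 CPM in DMSO Ova and 19.4, 18.7, 10.5, 12.0 and 13.2 in DMSO IC, so that mice A and B had higher values than C, D and E in both groups, and they did in both iBET groups as well. It had a log2 fold change of 0.24 (SE 0.248, adjusted p = 0.549) with IC in DMSO, and with the replicate block 0.24 (adjusted p = 0.00621). The labels name no batch that separates these mice. Of the 78 subunits, 30 passed in none of the 5 comparisons without the block and 7 in none with it. Among these 7 were Atp5c1, Ndufs3, Ndufv1 and Uqcrc1. The same counts over all tested genes were not made.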

How the data were processed

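RNA-seq of 20 BMDC libraries (4 groups of 5 mice) was analysed. The authors deposited whole-number counts per gene, and signal values that equal counts divided by a DESeq2 size factor. The submitters' processing notes list CASAVA, FastQC, Trim Galore, HISAT2, featureCounts and mm10. The annotation, the use of strand and the handling of multi-mapped reads were not given in the sources used here.

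Counts were fitted with edgeR 4.0.16 in R 4.3.3 (filterByExpr, TMM, quasi-likelihood test, 1 term per group over all 20 libraries), with Benjamini-Hochberg adjustment over 12465 genes and a threshold of 0.05. Log2 fold changes are from that fit and CPM values are TMM-scaled. Libraries of 1 mouse share its letter in the labels, and the deviations from the group means correlated within mice (30 pairs, mean r 0.524, lowest 0.3074), so the fit with the mouse as a block is given beside counts of members and lists that it moved by over 1.5 times, and for subunits described by value whose call it changed. The p-values of the fit without the block treat the libraries of 1 mouse as independent.

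Alternatives were the block, DESeq2 1.42.0 size factors and Wald test, library totals alone, no filter, surrogate variables (sva 3.50.0, 3 variables), the 10 libraries compared, limma 3.58.1 on log2 of the signal values plus 1, each mouse left out, and mice A and B or C, D and E alone. That last split was known from earlier results of these data and is not in the labels. The fit without the block was tested on simulated counts with 200 genes changed in IBET Ova, far fewer than were called in the data. It recovered 50.5% of 109 genes changed by 0.5 on the log2 scale and 83.5% of 91 changed by 1. Of its calls 6.43% were false. Among the subunits only Atp5s and Cox7a1 changed by at least 0.5 in any pairwise comparison, so a subunit that did not pass may still have changed. Exon lengths and gene bounds are from GENCODE M21, promoters from RefSeq.

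The members and lists were chosen with earlier results of these data known. Genes named with values were core subunits, the called member with the largest rise and fall per complex and comparison, the 5 most abundant members and the highest per length in each complex, restricted isoforms, the 3 smallest interaction p-values and, per pathway list, up to 4 genes with the smallest p with iBET in Ova. The other members named, among them Ndufa9, Ndufb7, Ndufa4, Cox6c, Uqcrq and Atp5sl, were chosen after their values were seen. Replicate libraries of a group all differed by more than sampling noise, and counts of 16447491 to 29245150 per library set the precision. A member that the rule would name is not reported here.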

Additional observations from a re-analysis of the deposited data

Results flagged for a closer look

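The lowest and highest library of each of 104 groups of 5 was compared with the rest by Dixon's criterion (0.71), which chance passes in about 1 in 20 groups, and 3 stood apart. Atp5c1, the gamma subunit of complex V, was lowest in the IBET Ova library of mouse C at 168 CPM, where the nearest library had 186. Cox5a of complex IV was lowest in the DMSO IC library of mouse B at 101 CPM, with the nearest at 117. Ndufv2 of complex I was highest in the DMSO IC library of mouse A at 69.2 CPM, with the nearest at 65.8.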

How the results depend on the processing

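The numbers of subunits called in either direction (25 with iBET in Ova, 21 with iBET in IC, 30 with IC in DMSO and 8 with IC in iBET) moved by over 1.5 times under some alternatives, and the cause was not tested unless stated. The counts are in that order, each set followed by the share of all tested genes called in the same fits, which was 56.6%, 56.1%, 20.3% and 11.8% for the counts just given. With the replicate block (mouse pairing) they were 40, 29, 59 and 48 (of all genes 68.7%, 68.0%, 38.1% and 28.9%), and the block kept every call made without it. Beyond the calls it added, it changed no other call. With library totals alone they were 18, 15, 5 and 0 (of all genes 56.3%, 56.2%, 25.5% and 18.8%), where the median log2 fold change of all genes shifted by -0.052, -0.052, -0.11 and -0.11. Without the low-count filter, which leaves more genes to adjust over, they were 17 with IC in DMSO and 4 with IC in iBET (of all genes 11.2% and 6.21%). With surrogate variables they were 45, 37, 41 and 24 (of all genes 65.5%, 63.7%, 29.5% and 22.3%), and with DESeq2's Wald test 27, 22, 36 and 18 (of genes with an adjusted p 48.9%, 49.4%, 21.7% and 14.6%). Fitting only the 10 libraries compared, which leaves fewer samples to estimate the spread, gave 16, 22, 14 and 5 (of all genes 52.6%, 57.9%, 14.6% and 10.3%). Leaving out 1 mouse, without the block, gave 16 to 36, 12 to 18, 3 to 34 and 0 to 11 (of all genes 49.9% to 54.2%, 48.9% to 53.8%, 9.43% to 19.8% and 5.14% to 9.44%). Restricting the fit to mice A and B called 7, 10, 0 and 0 (of all genes 43.9%, 41.9%, 4.0% and 2.37%), and to mice C, D and E 48, 18, 54 and 1 (of all genes 58.6%, 57.4%, 27.2% and 9.48%). DESeq2 size factors and limma on the signal values left all 4 counts within 1.5 times. The interaction called 0 subunits in every setting run, and was not run on 10 libraries, since it needs all 4 groups. Uqcrq, called higher with iBET in Ova at 0.24, was at -0.014 in mice A and B alone, and no other called subunit changed sign there, in mice C, D and E, or with library totals.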
